A study of Mus musculus with 11 samples.

Results

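The genes described here are 3 kinds of molecule through which macrophages take up dying cells: the receptor tyrosine kinases Mertk and Axl, the secreted bridging molecules Gas6, Pros1 and Mfge8, and the phosphatidylserine receptors Timd4 and Stab1. The 7 members were chosen by gene symbol, and 6 of them were among the 12932 genes of the expression table. Timd4 was not among its rows and was not analysed here.

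RNA-seq was performed on alveolar macrophages (AMs) sorted from 9-week-old male and female C57BL/6J mice, with 40000 cells per library. Control mAMs (4 libraries, genotype CD11cCre- Rxrabfl/fl) were mature AMs sorted as CD11b-/SiglecF+ cells from littermates that carry the floxed Rxra and Rxrb alleles but no Cre. RXR-deficient mAMs (4 libraries, CD11cCre+ Rxrabfl/fl) were cells of the same gate from mice in which Cre, driven by the CD11c (Itgax) promoter, deletes both retinoid X receptors (RXRs) in CD11c-expressing cells. ImmAMs (3 libraries, CD11cCre+ Rxrabfl/fl) were immature AMs, sorted as CD11b+/SiglecF+ cells, and their replicates are numbered 2, 3 and 4. All 3 groups carry the floxed alleles. ImmAMs of control mice were not sequenced here, so genotype and maturation cannot be told apart in the comparison of ImmAMs with control mAMs. The study's legends give n = 3 for RXR-deficient mAMs, and replicate 4 of this group was not used in its comparisons. Fits were therefore made on 10 libraries, and the CPM or reads of replicate 4 are given for each member. Means of RXR-deficient mAMs are over replicates 1 to 3.

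Reads on the listed genes ranged from 16659960 to 37873532 per library. Rxra was measured at 310 to 380 CPM (reads scaled to the library size) in control mAMs, 334 to 419 in RXR-deficient mAMs and 283 to 305 in ImmAMs. Rxrb was measured at 51.4 to 72.1, 39.3 to 55.3 and 31.9 to 35.2 CPM, respectively. Such counts cover the whole transcript, including parts outside the deleted exons, and so do not check the labels. All 13 AM markers were in the table, with summed levels of 23050 to 33400 CPM over the 11 libraries. Most of this sum was Chil3, at 13180 to 18300 CPM in control mAMs and 20270 to 21940 in ImmAMs. In ImmAMs against control mAMs, 10 of the 13 AM markers were called lower by limma, 1 (Chil3) higher, and 2 (Pparg and Plet1) were not called. Over all genes tested, 25.3% were called lower and 22.8% higher in this comparison. Among the defining ones that fell were Siglecf at 19.3 to 19.7 CPM against 244 to 264 in control mAMs, and Marco at 10.95 to 13.9 against 310 to 377.

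A dying cell displays phosphatidylserine on its outer surface. Phagocytes recognize it either directly, through receptors such as TIM-4 (encoded by Timd4) and stabilin-1 (Stab1), or through soluble proteins that bind the lipid on one side and a receptor on the other. GAS6 and protein S (Pros1) bridge the lipid to the TAM kinases TYRO3, AXL and MERTK, whereas MFG-E8 (Mfge8) bridges it to integrins of the αv family. MERTK is used widely by resident macrophages for this clearance, and AXL is a TAM receptor known to be abundant on AMs of the mouse airways.

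Tyro3, the TAM receptor that is not a member, was also not among the rows and was not analysed here. On a scale that allows genes to be compared, CPM per kb of exon, Axl stood highest in control mAMs, at 490 ± 14.0 (SD, n = 4). Pros1 followed at 104 ± 8.6 and Mertk at 96.3 ± 3.5, and their libraries overlapped. Mfge8 was far lower, at 1.72 ± 0.13 CPM per kb. Stab1 and Gas6 were lowest, at 0.0431 ± 0.023 and 0.0362 ± 0.010, again with overlapping libraries.

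The order of mean levels per kb was the same in the other groups, but the spacing was not. In RXR-deficient mAMs (replicates 1 to 3), Axl was at 427 ± 22.3 CPM per kb, Pros1 at 118 ± 2.5 and Mertk at 95.8 ± 13.6. Mfge8 was at 3.47 ± 1.0, Stab1 at 0.142 ± 0.081 and Gas6 at 0.0355 ± 0.016 CPM per kb in these cells. ImmAMs held Axl at 265 ± 4.9 CPM per kb, Pros1 at 83.5 ± 3.2, Mertk at 53.4 ± 2.5, Mfge8 at 18.3 ± 1.9, Stab1 at 2.14 ± 0.19 and Gas6 at 0.752 ± 0.051. In ImmAMs and in these 3 RXR-deficient mAM libraries, no neighbours in the order overlapped. With replicate 4, at 105 CPM per kb for Pros1, the RXR-deficient libraries of Pros1 and Mertk overlapped.

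**Figure D1:**
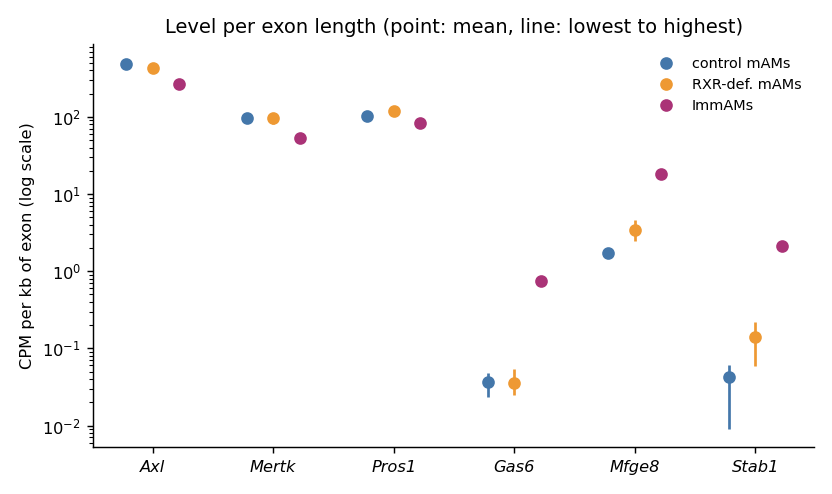
Level of each gene per kb of exon on a log scale, as the mean (point) and the lowest to highest library (line) of control mAMs (n = 4), RXR-deficient mAMs (replicates 1 to 3) and ImmAMs (n = 3). Axl stands highest in all 3 groups, and Gas6, Mfge8 and Stab1 stand highest in ImmAMs.

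The first question was how the TAM receptors and the other uptake genes differed between ImmAMs and control mAMs. In ImmAMs, the receptors Axl and Mertk and the bridging molecule Pros1 fell, and Mfge8, Gas6 and Stab1 rose. The fall of Axl and Mertk was less than 2-fold, while Mfge8 rose more than 10-fold. In this comparison 48.1% of the 12889 genes tested passed p-adj under 0.05 (limma, Benjamini-Hochberg adjustment), with 22.8% called higher and 25.3% called lower in ImmAMs. With a background that high, a call in this comparison singles out no gene, and the sizes carry the description below. The median log2 fold change of all genes tested was -0.003.

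Mertk was measured at 434, 415, 423 and 398 CPM in control mAMs and at 233, 242 and 220 CPM in ImmAMs. Every ImmAM library lay below every control library. Here and below, the share of all genes whose groups do not overlap was not counted, so lack of overlap is a description only. The fitted level fell by 44.6%, a log2 fold change of -0.85 (SE 0.087, limma p-adj = 3.9e-06).

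Axl was measured at 2414, 2450, 2571 and 2436 CPM in control mAMs and at 1308, 1358 and 1330 CPM in ImmAMs. The groups did not overlap, and the libraries within each group lay close together. On the log2 scale the difference was -0.89 (SE 0.063, limma p-adj = 1.4e-07). The ratio of Axl to Mertk per kb was 4.79 to 5.27 in control mAMs and 4.83 to 5.21 in ImmAMs, and the groups overlapped. The log2 difference of this ratio was -0.038 (exact permutation test, two-sided p = 0.514; the smallest p that 4 against 3 libraries allow is 0.0571).

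Pros1, which encodes the vitamin K-dependent ligand protein S, was measured at 436, 435, 451 and 371 CPM in control mAMs and at 347, 326 and 351 CPM in ImmAMs. The groups did not overlap, but the lowest control library, replicate 4, came close to the highest ImmAM library. This gave a log2 fold change of -0.31 (SE 0.071, limma p-adj = 0.0031).

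Mfge8, which encodes the integrin-binding bridging protein MFG-E8, was measured at 8.23, 8.83, 7.71 and 7.44 CPM in control mAMs and at 75.5, 92.3 and 89.5 CPM in ImmAMs. The lowest ImmAM library was well above the highest control. Mfge8 rose 10.6-fold in the fit, a log2 fold change of 3.41 (SE 0.17, limma p-adj = 5.2e-09).

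Gas6, the ligand of all TAM receptors, gave 3, 1, 2 and 2 reads in control mAMs and 30, 44 and 35 reads in ImmAMs. These correspond to 0.0925, 0.0603, 0.0938 and 0.123 CPM and to 1.82, 2.06 and 1.86 CPM. Per scaled library size, the pooled reads were 26.1-fold higher in ImmAMs (95% exact interval 12.8 to 61.9, counting error only), and limma gave a log2 fold change of 4.42 (SE 0.90, p-adj = 0.0013). Gas6 shares 34 exon bases with Tmem255b on the opposite strand.

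Stab1, which encodes a scavenger receptor that also binds phosphatidylserine, gave 20, 15, 2 and 10 reads in control mAMs (0.542, 0.623, 0.0938 and 0.516 CPM). ImmAMs gave 344, 523 and 403 reads (20.5, 24.3 and 21.2 CPM). The pooled reads per scaled library size were 51.7-fold higher in ImmAMs (95% exact interval 38.6 to 70.7, counting error only), and limma gave a log2 fold change of 5.94 (SE 0.62, p-adj = 4.8e-06). Stab1 shares 112 exon bases with Nt5dc2 on the opposite strand, which was at 2.02 to 3.36 CPM in control mAMs and 5.54 to 6.15 in ImmAMs. The strand setting of the read counting is not given in the sources used here.

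Gas6 and Stab1 passed the filter on low values only through ImmAMs, with 0 and 2 of the 7 mAM libraries at 1 CPM or more, and so had to differ. Their calls against ImmAMs are therefore no support beyond the values themselves. Marker genes of other cell types were also higher in ImmAMs. The 8 of 10 interstitial macrophage markers in the table summed to 296 to 319 CPM in ImmAMs and 3.09 to 4.37 in control mAMs. The 5 of 7 monocyte markers summed to 259 to 263 and 14.9 to 20.9 CPM, respectively. This monocyte sum includes Itgam, which encodes the CD11b of the sort gate, so part of that difference was fixed by the sort. Itgam alone was at 168 to 174 CPM in ImmAMs and 3.519 to 3.855 in control mAMs. Dendritic cell markers (2 of 6 in the table) summed to 20.7 to 24.1 CPM in ImmAMs against 5.40 to 7.24, and neutrophil markers (4 of 6) to 18 to 25.8 against 6.38 to 11.2 CPM. Of the markers of eosinophils, alveolar type 2 cells, endothelial cells and fibroblasts, none was among the rows, nor were Lyve1, Folr2, Ly6c2 and Plac8. No marker of these lists in the table was at 0 reads in a whole group, and their part in these results was not tested. In such bulk libraries, fewer cells of a type and less RNA per cell cannot be told apart.

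**Figure D2:**
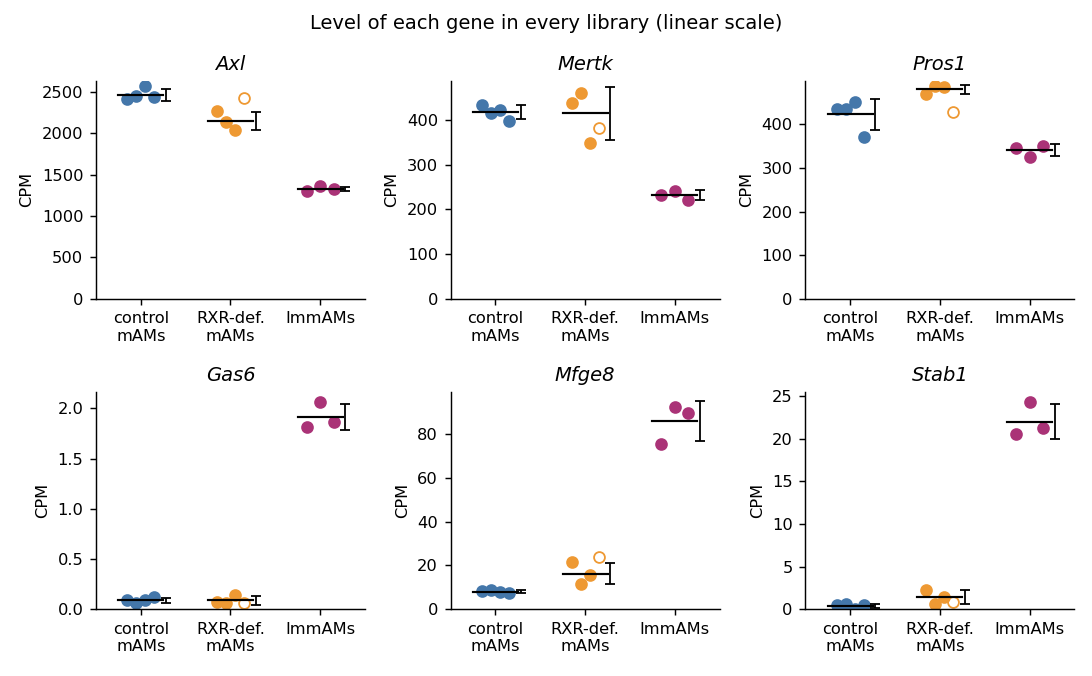
CPM of the 6 genes in every library on linear axes from 0, with a point per library, a line at the mean and an error bar of 1 SD. The open point is replicate 4 of the RXR-deficient mAMs, which is outside the mean. Axl, Mertk and Pros1 are lower in every ImmAM library than in every mAM library, and Gas6, Mfge8 and Stab1 are higher. The share of all genes that separate in this way was not counted.

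The second question was which of these genes differed between the 2 mature groups, which differ in RXR genotype within the same gate. Mfge8 rose, and no other member passed the test. Here 4.84% of the 12889 genes were called by limma, 2.25% as higher and 2.59% as lower in RXR-deficient mAMs, and the median log2 fold change of all genes was -0.002.

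Mfge8 was measured at 21.4, 11.7, 15.8 and 23.8 CPM in RXR-deficient mAM replicates 1 to 4, against 7.44 to 8.83 CPM in control mAMs. All 4 RXR-deficient libraries lay above all controls, but they differed more among themselves than the controls did. Without replicate 4, the log2 fold change was 0.98 (SE 0.17, limma p-adj = 0.0095), a fitted rise of 1.97-fold, and with it 1.12 (limma p-adj = 0.0051). The call was kept in 22 of 23 alternatives and lost without the variance trend of limma (p-adj = 0.054).

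Axl was measured at 2267, 2134 and 2043 CPM in RXR-deficient mAM replicates 1 to 3 and at 2428 in replicate 4. The first 3 lay below all controls, while replicate 4 lay among them. A log2 fold change of -0.20 (95% confidence interval -0.34 to -0.06) did not pass (limma p-adj = 0.083). DESeq2 called it on the same 10 libraries (p-adj = 0.0093) and edgeR did not (p-adj = 0.051).

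Mertk was measured at 438, 460, 348 and 382 CPM in RXR-deficient mAM replicates 1 to 4. These libraries lay on both sides of the controls. The log2 fold change was -0.02 (95% confidence interval -0.21 to 0.17, limma p-adj = 0.93), so a difference of the size seen in ImmAMs lies outside the interval. The Axl to Mertk ratio per kb spread from 4 to 5.47 over the 4 libraries.

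Pros1 was measured at 469, 488, 486 and 428 CPM in RXR-deficient mAM replicates 1 to 4. Replicates 1 to 3 lay above all controls and replicate 4 among them. The log2 fold change of 0.19 (95% confidence interval 0.04 to 0.34) did not pass (limma p-adj = 0.13).

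Stab1 gave 49, 14, 26 and 18 reads in RXR-deficient mAM replicates 1 to 4 (2.28, 0.616, 1.47 and 0.848 CPM). The second library lay just below the highest control and the other 3 above it. The log2 fold change of 1.83 (95% confidence interval 0.49 to 3.18) did not pass (limma p-adj = 0.10), and DESeq2 called it (p-adj = 0.0012). Without replicate 2 of these cells, limma called it narrowly (p-adj = 0.0496).

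Gas6 gave 1, 1, 2 and 1 reads in RXR-deficient mAM replicates 1 to 4. The ratio of pooled reads of replicates 1 to 3 to control mAMs was 0.867 (95% exact interval 0.191 to 3.24, counting error only). A difference was not detectable at this depth.

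**Figure D3:**
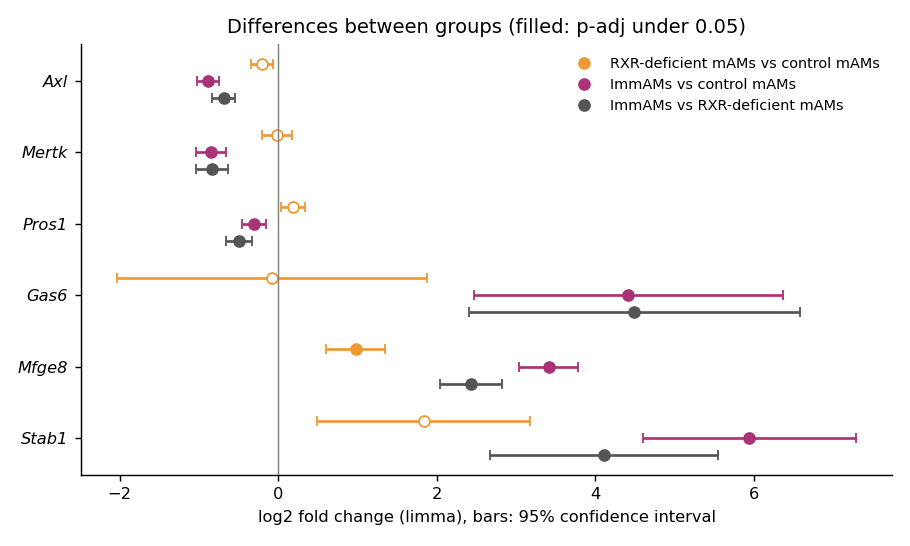
Log2 fold changes of the 6 genes in the 3 comparisons from the limma fit over 10 libraries, with 95% confidence intervals as bars and filled points for p-adj under 0.05. Among the points for RXR-deficient against control mAMs, Mfge8 alone is filled, and its rise is smaller than in ImmAMs.

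The position of each RXR-deficient mAM library between the mean of control mAMs (0%) and the mean of ImmAMs (100%) was taken on the linear CPM scale. Mfge8 lay at 17.2%, 4.65%, 9.93% and 20.2% in replicates 1 to 4. The summed interstitial macrophage markers lay at 1.17%, 0.477%, 3.39% and 1.57%, and the monocyte markers at 0.952%, 1.11%, 7.05% and 1.82%. In each of the 4 libraries, Mfge8 lay further towards ImmAMs than either list. Other uptake genes also lay between the groups. Mean Cd93 was 40.8, 173 and 580 CPM in control mAMs, RXR-deficient mAMs (replicates 1 to 3) and ImmAMs. Cd300a was at 72.8, 114 and 251 CPM in the same order, and Colec12, nearer control mAMs, at 29.5, 44.5 and 386. The part of genotype or of cells of other types in these positions was not tested. Of the AM markers that fell in ImmAMs, Siglecf lay at 14.2%, 6.53%, 24.8% and 24.9% and Marco at 17.7%, 17.1%, 18.5% and 17.3%. Positions were taken for no other AM marker, and others lay elsewhere. Fabp4 was at 42.7 to 79.9 CPM in these libraries, against 126 to 203 in control mAMs and 25.7 to 32.1 in ImmAMs. Car4, also lower in ImmAMs, had a log2 fold change of 0.16 in RXR-deficient against control mAMs. Of the 13 AM markers, 3 were called lower and 0 higher in that comparison, beside 2.59% and 2.25% of all genes (limma). The members that fell in ImmAMs spread more widely over the RXR-deficient libraries than Siglecf and Marco did. Mertk lay at -22.9% to 37.2%, Axl at 3.54% to 37.4% and Pros1 at -79.1% to -6.25%, where a value below 0% lies away from ImmAMs. Itgam, which encodes the CD11b that defines the gate and is part of the monocyte sum, lay at 2.55%, 0.183%, 3.79% and 2.51%. Stab1 lay at 8.54%, 0.800%, 4.75% and 1.87%, so that in replicates 2 and 3 it lay below the monocyte markers. The summed interstitial markers were at 5.10 to 14.0 CPM in RXR-deficient mAMs and the monocyte markers at 20.4 to 35.2 CPM.

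**Figure D4:**
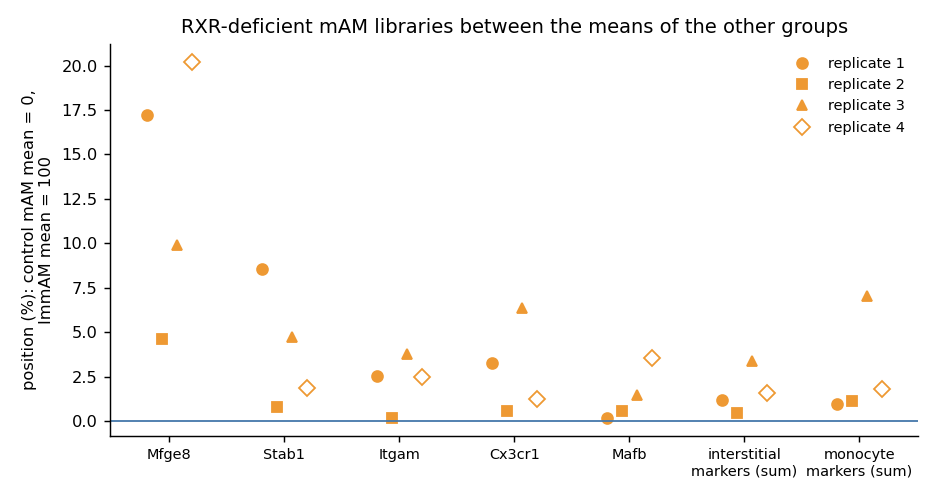
Position of each RXR-deficient mAM library between the mean of control mAMs (0%) and of ImmAMs (100%) on the linear CPM scale, for Mfge8, Stab1, 3 marker genes and 2 summed marker lists. The open symbol is replicate 4. Mfge8 reaches 4.65% to 20.2%, and the interstitial macrophage sum 0.477% to 3.39%.

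The third question was what separated ImmAMs from mAMs of the same genotype. The directions were those of the comparison with control mAMs, which shares the ImmAM libraries. Here 37.9% of genes were called by limma, 17.7% as higher and 20.2% as lower in ImmAMs. Mertk changed by -0.83 (SE 0.093, limma p-adj = 1.4e-05) and Axl by -0.69 (SE 0.068, limma p-adj = 4.6e-06) on the log2 scale. Pros1 changed by -0.50 (SE 0.076, limma p-adj = 2.0e-04). Mfge8 changed by 2.43 (SE 0.18, limma p-adj = 3.9e-07). The groups did not overlap for these genes, with or without replicate 4. The share of all genes without overlap was not counted, so this is a description only. Gas6 and Stab1 had pooled reads 30.04-fold (95% exact interval 11.4 to 112) and 15.7-fold (12.7 to 19.7) higher in ImmAMs, counting error only.

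The upstream sequence of a promoter is shown for Mfge8, Stab1 and Axl, the 3 members in the table whose windows held the motif marked in capitals. Mfge8 and Stab1 were highest in ImmAMs, as was Gas6, which is not shown. Axl was the most abundant member and lowest in ImmAMs. Each sequence is the 250 bases before the RefSeq start on GRCm38.p6, 5′ to 3′ on the strand of the gene. Matches of the PU.1 core (GAGGAA, either strand) are in capitals. PU.1 is a transcription factor that macrophages need.
Mfge8 (chr7:79149061-79149310, minus strand): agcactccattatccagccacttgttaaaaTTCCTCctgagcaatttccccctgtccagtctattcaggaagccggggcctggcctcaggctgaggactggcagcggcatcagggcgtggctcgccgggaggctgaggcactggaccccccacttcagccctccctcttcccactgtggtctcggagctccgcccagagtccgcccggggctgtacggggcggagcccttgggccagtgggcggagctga
Stab1 (chr14:31168642-31168891, minus strand): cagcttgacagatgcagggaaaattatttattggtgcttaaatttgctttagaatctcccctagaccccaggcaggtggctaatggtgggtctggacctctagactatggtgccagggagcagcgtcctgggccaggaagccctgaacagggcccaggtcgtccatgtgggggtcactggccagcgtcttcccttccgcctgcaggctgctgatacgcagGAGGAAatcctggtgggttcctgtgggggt
Axl (chr7:25788734-25788983, minus strand): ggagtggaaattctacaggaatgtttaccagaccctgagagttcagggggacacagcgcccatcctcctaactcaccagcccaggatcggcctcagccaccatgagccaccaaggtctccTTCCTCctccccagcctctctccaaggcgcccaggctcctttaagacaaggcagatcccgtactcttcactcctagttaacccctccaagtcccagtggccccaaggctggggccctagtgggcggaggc

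The match began 220 bases before the start in Mfge8, 30 in Stab1 and 130 in Axl, and the windows of Mertk, Pros1 and Gas6 held none. Of 32851 promoter windows of this length, 23.3% held GAGGAA. The exact letters AGGTCA, a form of the nuclear receptor half-site that RXR dimers bind, were in none of the 6 windows and in 14.0% of all windows. Other forms of this half-site were not searched for. The AP-1 motif TGANTCA was also in none, against 6.75% of all. The MAF half-site TGCTGA was in Stab1 only, 43 bases before the start and outside the GAGGAA match, against 16.1% of all. These are letters in a short window, and nothing was measured of binding.

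Positions are on GRCm38 (GENCODE vM21). No 60-base window of the members' transcripts occurred, in the same orientation, in transcripts of other genes. The reverse complement of these windows was not searched for. Mertk (ENSMUSG00000014361) spans chr2:128698956-128802894 on the plus strand and Axl (ENSMUSG00000002602) chr7:25757273-25788705 on the minus strand. Gas6 (ENSMUSG00000031451) spans chr8:13465374-13494490 on the minus strand, Pros1 (ENSMUSG00000022912) chr16:62854307-62929346 on the plus strand, and Mfge8 (ENSMUSG00000030605) chr7:79133768-79149060 on the minus strand. Stab1 (ENSMUSG00000042286) spans chr14:31139013-31168641 on the minus strand.

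The genes whose log2 CPM followed a member most closely over the 11 libraries were taken by Pearson's r, among genes averaging 5 CPM or more, as a description in which the 3 groups set most of the likeness. Axl was most like Wdfy4 (r = 0.997), Abhd12 (0.996) and Colgalt1 (0.996). Mertk was most like Sema6d (0.990), Ehhadh (0.988) and Osbpl11 (0.987). Pros1 was most like Smc4 (0.974), Prkaa1 (0.974) and Memo1 (0.972).

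Mfge8 was most like Stac2 (0.992), Wfdc17 (0.991) and Lacc1 (0.990). Stac2 was at 18.4 to 21.5 CPM in control mAMs, 23.1 to 42.8 in RXR-deficient mAMs and 116 to 132 in ImmAMs, the same order of groups as Mfge8. Stab1 was most like Nt5e (0.985), St3gal1 (0.984) and Ldlrad4 (0.983), and Gas6 was most like Itpr3 (0.988), E330009J07Rik (0.987) and Lyl1 (0.984).

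The members were set beside lists of other genes of apoptotic cell uptake, 89 of 105 of which were tested. In ImmAMs against control mAMs, 29 rose and 24 fell (limma), against 22.8% and 25.3% of all genes, and their median was 0.06 on the log2 scale. Of the 29 that rose, 4 (Cd163, Edil3, Gpr132 and Thbs1) passed the filter only through ImmAMs and so had to differ. The counts of each list below, in the same comparison, stand beside the same 48.1% called over all genes and are given as a description. In RXR-deficient against control mAMs, 7 rose and 3 fell, beside 2.25% and 2.59% of all genes, with a median of 0.03. The balance moved with the tool, to 9 and 9 with DESeq2, 5 and 5 with limma-voom, and 2 and 1 without the variance trend. This count also rests on single libraries: 2 rose and 2 fell without replicate 1 of the RXR-deficient mAMs, 2 rose and 1 fell without replicate 3, 9 rose and 6 fell without replicate 2, and 4 rose and 1 fell without replicate 2 of the control mAMs. With replicate 4 of the RXR-deficient mAMs added, 7 rose and 2 fell. Against RXR-deficient mAMs, 24 rose and 21 fell in ImmAMs, beside 17.7% and 20.2% of all genes, with a median of -0.01, and the same 4 genes were among those that rose.

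The TAM and bridging list, which holds the members Axl, Mertk, Gas6, Pros1 and Mfge8, had 12 of 15 genes in the table. In ImmAMs against control mAMs, 4 of them rose, 3 fell and 5 were not called, beside 48.1% called over all genes. Furin, a proprotein convertase, rose by 0.40 (limma p-adj = 0.0079) on the log2 scale. Edil3, a relative of Mfge8, passed with 4.04 CPM in ImmAMs against 0.0886 in control mAMs, and it too passed the filter only through ImmAMs. The sheddases of TAM receptors did not pass, with Adam17 at a log2 fold change of -0.05 (limma p-adj = 0.65) and Adam10 at 0.06 (limma p-adj = 0.59). Ggcx, the enzyme that carboxylates GAS6 and protein S, was at 0.17 (limma p-adj = 0.29).

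Among the phosphatidylserine receptors and regulators, 12 of 17 were in the table, and in ImmAMs 4 rose and 2 fell. Besides Stab1, the receptors Cd300a (72.8 to 251 CPM in the means of control mAMs and ImmAMs), Cd300lb (46.8 to 139 CPM) and Cd300lf (324 to 472 CPM) rose. Plscr1, a scramblase family gene, fell from 132 to 23.9 CPM. Cd300a also rose in RXR-deficient mAMs, to 114 CPM (log2 fold change 0.64, limma p-adj = 0.020). Havcr2, which encodes TIM-3, was at 139 CPM in control mAMs and 130 in ImmAMs (limma p-adj = 0.30), and fell in ImmAMs against RXR-deficient mAMs by 0.29 on the log2 scale (limma p-adj = 0.011).

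Of the scavenger and integrin receptors, 15 of 17 were in the table, and 7 rose and 4 fell in ImmAMs. Marco, a scavenger receptor of AMs, fell from 342 to 12.6 CPM, and Scarb1, the HDL receptor, from 151 to 45.7 CPM. Cd93 rose from 40.8 to 580 CPM, Colec12 from 29.5 to 386, Msr1 from 32.99 to 409 and the co-receptor Cd14 from 71.9 to 271 CPM. In RXR-deficient mAMs, Cd93 (173 CPM), Msr1 (105 CPM) and Colec12 (44.5 CPM) rose and Scarb1 (107 CPM) fell. Lrp1 was at 3283 CPM in control mAMs and 3238 in ImmAMs (limma p-adj = 0.87). Of the genes of the αv integrins that bind MFG-E8, Itgb3 was not among the rows, and Itgb5 rose in ImmAMs from 291 to 477 CPM and Itgav from 67.5 to 92.0 CPM.

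The list of find-me and do-not-eat-me signals had 9 of 10 genes in the table, and 4 rose and 3 fell in ImmAMs. Cx3cr1, the fractalkine receptor, rose from 0.845 to 118 CPM. Thbs1, at 0.389 CPM in control mAMs and 7.95 in ImmAMs, passed the filter only through ImmAMs. Cx3cr1 also rose in RXR-deficient mAMs, to 4.84 CPM (limma p-adj = 0.016), with single libraries from 1.51 to 8.34 CPM and replicate 4 at 2.31. It is 1 of the interstitial macrophage markers summed above, and the part of such cells in this value was not tested. P2ry2 fell in RXR-deficient mAMs to 53.9 CPM (limma p-adj = 0.031). P2ry2, a receptor for nucleotides released by dying cells, fell in ImmAMs from 82.0 to 14.3 CPM, Cd47 from 715 to 360 and its receptor Sirpa from 2165 to 1339 CPM.

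Of the 18 genes of the engulfment machinery, 16 were in the table, and in ImmAMs 6 rose, Mfge8 among them, and 5 fell. Elmo2 fell by 0.73, Myo10 fell by 1.64, Ptk2 rose by 1.81 from a low level of 1.57 CPM, and Dock1 rose by 0.52 on the log2 scale. Dock2 was at -0.11 (limma p-adj = 0.14) and Elmo1 at -0.12 (limma p-adj = 0.16). Mfge8 was the one gene of the list called in RXR-deficient mAMs.

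All 19 genes of phagosome maturation and LC3-associated phagocytosis were in the table. In ImmAMs against control mAMs, 4 rose and 5 fell, each by less than 0.4 on the log2 scale, such as Ncf1 (0.34), which encodes a phagocyte oxidase subunit, and the autophagy gene Atg7 (-0.33). None was called in RXR-deficient against control mAMs. Rubcn was at -0.03 (limma p-adj = 0.76) and Cybb at -0.11 (limma p-adj = 0.46) in ImmAMs.

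Among genes of cargo handling and TAM feedback, 13 of 17 were in the table, and 4 rose and 5 fell in ImmAMs. The cholesterol exporter gene Abcg1 fell from 2661 to 825 CPM and Nr1h3, which encodes LXRα, from 39.1 to 5.89 CPM. Socs3, which belongs to the SOCS family that TAM signalling induces, rose from 7.77 to 56.6 CPM and the glucose transporter gene Slc2a1 from 14.3 to 65.9 CPM. In RXR-deficient mAMs, Socs3 (16.2 CPM) and Abca1 (288 CPM against 194 in control mAMs) rose, and Tgfb1 fell from 431 to 324 CPM (limma p-adj = 0.025). Pparg was at 198 CPM in control mAMs and 218 in ImmAMs (limma p-adj = 0.13).

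**Figure D5:**
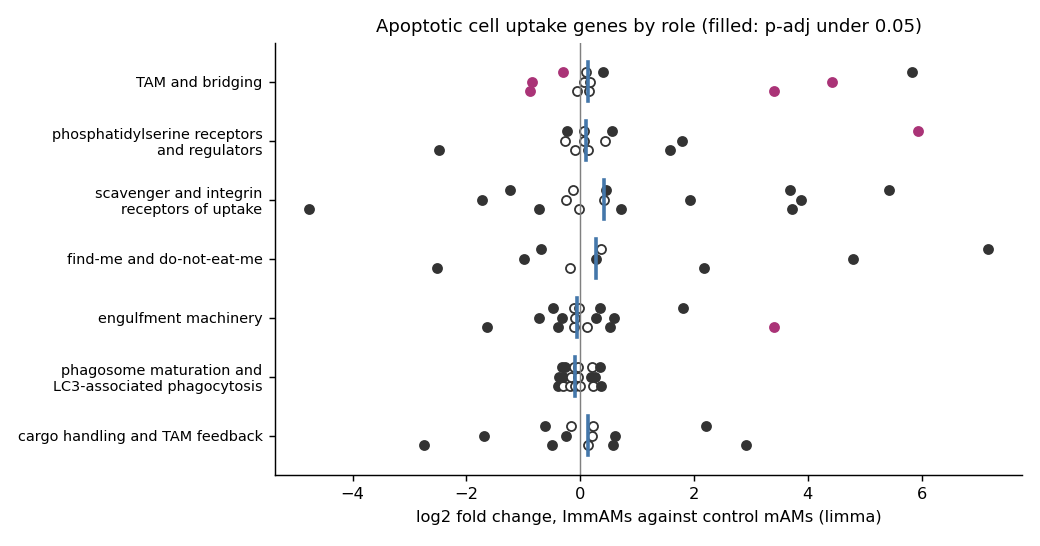
Log2 fold changes of the tested genes of each list in ImmAMs against control mAMs, with a blue line at the list's median and filled points for p-adj under 0.05 (limma). Points in purple are the 6 members. The scavenger and phosphatidylserine receptor lists reach from -4.76 to 5.94, and the phagosome list stays within 0.4 of 0.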

How the data were processed

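RNA-seq was performed by the authors on 11 libraries of sorted AMs with a directional kit and single-end reads of 60 bases. Per the study's methods, reads were trimmed with Cutadapt, quantified with RSEM (version 1.3.1) on the GRCm38 transcriptome (Ensembl 99) and scaled by the TMM method in limma, with a minimum of 1 CPM in 3 samples. Each CPM value deposited by the authors is a number of whole reads plus 0.5, times a step per library, and whole reads were recovered within 0.01 for 100% of them. All 12932 genes of the table reach 1 CPM in 3 or more of its 11 libraries. Sources differ on the sequencer and on whether cells came from lavage or lung digestion. Reads per library (16659960 to 37873532) set the precision of low genes.

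Sample titles gave the groups, and the sequenced samples are described as individual biological replicates. A model with a mean for each group was fitted to log2 CPM of 10 libraries (limma 3.58.1 under R 4.3.3, eBayes, variance trend) for the 12889 genes reaching 1 CPM in 3 or more of these. P-values were adjusted over every gene fitted (Benjamini-Hochberg), and p-adj under 0.05 was called. edgeR 4.0.16 and DESeq2 1.42.0 were run on the recovered reads as alternatives, with limma-voom, other filters, pseudocounts of 0.5 and 1, other scaling, all 11 libraries, a replicate block and each library left out. On those reads edgeR called 566 genes in RXR-deficient against control mAMs, where limma called 624. The fits were tested on simulated data in which only genes averaging 5 CPM or more were changed, and only in RXR-deficient mAMs. That test does not cover genes as low as Gas6 or comparisons in which many genes differ. Pooled-read ratios have exact conditional intervals (95%). Genes of the lists were named by size of change among called genes with a mean of 5 CPM or more in the higher group, up to 6 a list over the 3 comparisons, with some well-known members. The name of 1 gene that this rule picks is left out, though its list counts it. Edil3, Itgb5, Itgav, Tgfb1 and Abca1 were added after their values were seen. The members, the lists and the tests were chosen with earlier results of these data known. Sequences are from RefSeq (GRCm38.p6), in which all 6 genes matched.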

Additional observations from a re-analysis of the deposited data

Results flagged for a closer look

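Replicate 3 of the RXR-deficient mAMs was far above the other 3 libraries of its group for Gas6, at 0.139 CPM, by Dixon's criterion on 4 values, but this is 2 reads against 1 in each of the others. Chance alone marks about 1 in 20 such groups, and 12 were examined.

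Replicate 4 of the RXR-deficient mAMs, which the reported fit leaves out, carried Mfge8 at 23.8 CPM and Stab1 at 0.848 CPM, each above every control mAM library. For Mfge8 it was the highest of the 4 RXR-deficient libraries, and for Stab1 the third.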

How the results depend on the processing

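The falls of Mertk, Axl and Pros1 and the rises of Mfge8, Gas6 and Stab1 in ImmAMs, against either mAM group, were called with the same sign in every alternative that could test them. For Gas6 and Stab1 this is no support, because they are in the table only through ImmAMs and so had to differ. Gas6 was not tested with a filter at 5 CPM or without any 1 ImmAM library, and neither Gas6 nor Stab1 in the fit of the mature groups alone. With a pseudocount of 1, the log2 fold changes in ImmAMs against control mAMs went down to 1.42 for Gas6 and 4.01 for Stab1, and that of Stab1 in RXR-deficient mAMs to 0.72. In RXR-deficient against control mAMs, the call of Mfge8 was lost without the variance trend (0.98, p-adj = 0.054), DESeq2 added Axl (-0.20) and Stab1 (1.75), and Stab1 was called without replicate 2 of the RXR-deficient mAMs (2.36). Leaving out 1 library moved Mertk between -0.10 and 0.10, Stab1 between 1.19 and 2.36, and Gas6, at 1 to 3 reads, between -0.43 and 0.13. The number of genes called in this comparison was 624, and changed to 337 with all 11 libraries, 199 with the mature groups alone, 122 without the variance trend and 1352 with DESeq2, and the cause was not tested. Leaving out 1 library gave 162 to 861, with 162 without RXR-deficient replicate 3, 212 without replicate 1, 220, 327 and 355 without control replicates 2, 3 and 4, and 397 and 386 without ImmAM replicates 2 and 4. With replicate number as a block it was 174 (320 with all 11 libraries, an alternative chosen after seeing the data), and Gas6 was at 0.0016, while no member's call changed. Over 10 libraries, deviations of same-numbered libraries had correlations of -0.129 to 0.059 over 8 pairs and the own number best in 3 of 16 cases. With all 11 libraries, they reached 0.246, with 2 of 10 pairs over 0.1 and the own number best in 6 of 20. Not every pair passed 0.1, and the reported fit treated the samples as unpaired. Such correlations of deviations from the means of so few libraries cannot decide whether same-numbered libraries were paired. The calls in ImmAMs stayed within 1.5 times of 6194 and 4891 in the alternatives, with 5027 to 6317 and 3971 to 5278 when 1 library was left out. Few reads limit Gas6 and Stab1 in mature AMs.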
